A study of Trichoderma reesei with 12 samples.

Results

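The genes described here are 80 transcripts of the filamentous fungus Trichoderma reesei whose level differed between constant light and constant darkness in a strain without tmk3, but hardly in its parent. They were picked from 10879 identifiers by their read counts. Counts were scaled to CPM, the usual rate against the library's column total, which is not adjusted for gene length, and averaged over the 3 libraries of each group. A gene was taken if its highest group mean reached 10 CPM, if light over darkness lay between 0.67 and 1.5 in the parent, and if the same ratio without tmk3 was at least 3 or at most 1/3. The value 1 was added to each mean before a ratio was formed. The first and last 50 numbers of each of the 7 identifier series were left out. Of 6924 identifiers that reached the level outside those ends, 4093 had a parent ratio inside the window, and 80 of them met the last condition. Light was the higher condition without tmk3 for 16 of these (the light-high genes) and the lower one for 64 (the light-low genes). The parent and deletion-strain light ratios and their difference chose the genes, so they are given as descriptions with no test.

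Both strains derive from QM6a, the reference strain of this cellulose-degrading mould. The parent, QM6a-delta-ku80, carries a deletion of ku80, which serves DNA repair by end joining, and fungal strains without it are widely used for targeted gene replacement. The labels give its genotype as WT. The second strain, QM6a-delta-ku80-delta-tmk3, lacks ku80 as well as tmk3. Mycelium of each strain grew for 96 h at 28°C on cellulose in minimal medium, in constant light or in constant darkness, which makes 4 groups of 3 libraries with 11599300 to 17702344 counts each. Replicate 2 of the dark parent stood apart, with a TMM scaling factor of 0.761 against 0.925 to 1.11 in the other libraries. By column totals it was the lowest dark parent library for 12 of 15 light-high genes, 35 of 61 light-low genes and 68.5% of all identifiers that met the level (those with at least 1 CPM in that group). The labels name no complemented strain, do not say how many independent deletion strains were used, and do not say that the libraries of a group came from separate cultures. A strain difference therefore cannot be told apart from other differences between these strains, and the p-values cover no more than the spread among these libraries, which may be technical. In RNA from whole mycelium, fewer cells of a type and less RNA per cell cannot be told apart. The RefSeq gene table at hand (9116 entries) shares 0 of the 10879 identifiers, so no gene name, function or sequence is given for any of them, and the tmk3 transcript itself could not be read.

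TMK3 is the Hog1-type mitogen-activated protein kinase of Trichoderma. Kinases of this family end a phosphorelay and kinase cascade that fungi use to respond to osmotic, oxidative and other stress, with the phosphorylated kinase acting partly in the nucleus on transcription. In several filamentous fungi the same cascade receives light input: in Aspergillus nidulans it acts downstream of the phytochrome, and in Neurospora crassa the activity of the Hog1 orthologue OS-2 follows the circadian clock. Light in Trichoderma is sensed mainly by the blue-light receptors BLR1 and BLR2 and by the small photoreceptor ENV1, and it alters the expression of cellulase genes in T. reesei.

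In most light-high genes the dark deletion strain was below the parent, and the light deletion strain was within 2-fold of it. TrA1512W had the largest light ratio. It measured 302, 122 and 389.5 CPM in the dark parent libraries, 358, 378 and 376 in the light parent, 68.4, 44.4 and 51.4 without tmk3 in darkness and 298, 336 and 342 without tmk3 in light. The dark deletion libraries were thus below all 9 others, while the light deletion libraries lay just under those of the light parent. Its ratio of light to darkness was 5.85 without tmk3 and 1.37 in the parent. When replicate 3 of the dark parent was left out, TrA1512W no longer met the rule. TrD0341C, with a ratio of 5.83 and among the light-high genes with the most reads, showed the same arrangement. Its libraries read 652, 289.8 and 1055 CPM in the dark parent, 379, 536 and 466 in the light parent, 109, 69.6 and 71.6 without tmk3 in darkness and 482, 485 and 504 without tmk3 in light. In light the strains overlapped, and in darkness they did not. The parent ratio of TrD0341C was 0.693, close to the lower edge of the window, and became 0.54, outside it, without replicate 2 of the dark parent.

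Over all 16 light-high genes the dark deletion group had the lowest of the 4 group means in 15. The dark deletion strain differed from the dark parent by a median log2 fold change of -1.79 (range -3.60 to 3.18), and the light deletion strain from the light parent by -0.04 (range -1.20 to 6.18). Over all 8998 genes tested these medians were -0.07 and 0.00. The small median in light joined differences of both signs, 7 above 0 and 9 below. Only 8 of the 16 were within 0.5 of the parent on the log2 scale in light, against 5895 of the 8998. In 13 of the 16 the deletion strain was at least 2-fold lower in darkness and within 2-fold of the parent in light. All 3 dark deletion libraries lay below all 3 dark parent libraries for 12 genes, where 11.5% of all genes tested do so (13 genes and 23.0% with TMM-scaled libraries). The dark libraries belong to the contrast that chose the genes, so nothing is read from that count. In the deletion strain all light libraries lay above all dark ones for 16 of 16 genes (29.4% of all genes tested), a count that the choice of genes nearly fixes.

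The other 3 light-high genes were TrB1166C, TrB1608W and TrA0673W, the last of which was at least 2-fold lower without tmk3 in both conditions. TrB1166C was the 1 light-high gene above the parent in both. It had 11 counts in the dark parent group and 7 in the light parent group, against 124 and 475 in the deletion strain. Its levels were 0.246 ± 0.116 and 0.172 ± 0.156 CPM in the parent, dark and light, and 2.77 ± 1.2 and 13.1 ± 3.5 CPM in the deletion strain (mean ± SD, n = 3 here and below). The parent was close to 0 in both conditions, and the deletion strain was above it in both, more so in light. TrB1608W was within 2-fold of the parent in both conditions (TMM-scaled), with 47.5, 47.3 and 86.4 CPM in the dark deletion strain, which overlapped the 92.7, 54.3 and 85.5 CPM of the dark parent. In light its deletion libraries, at 239, 171 and 202 CPM, were above the parent libraries at 52.4, 118 and 139. It was singled out after its values were seen.

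**Figure D1:**
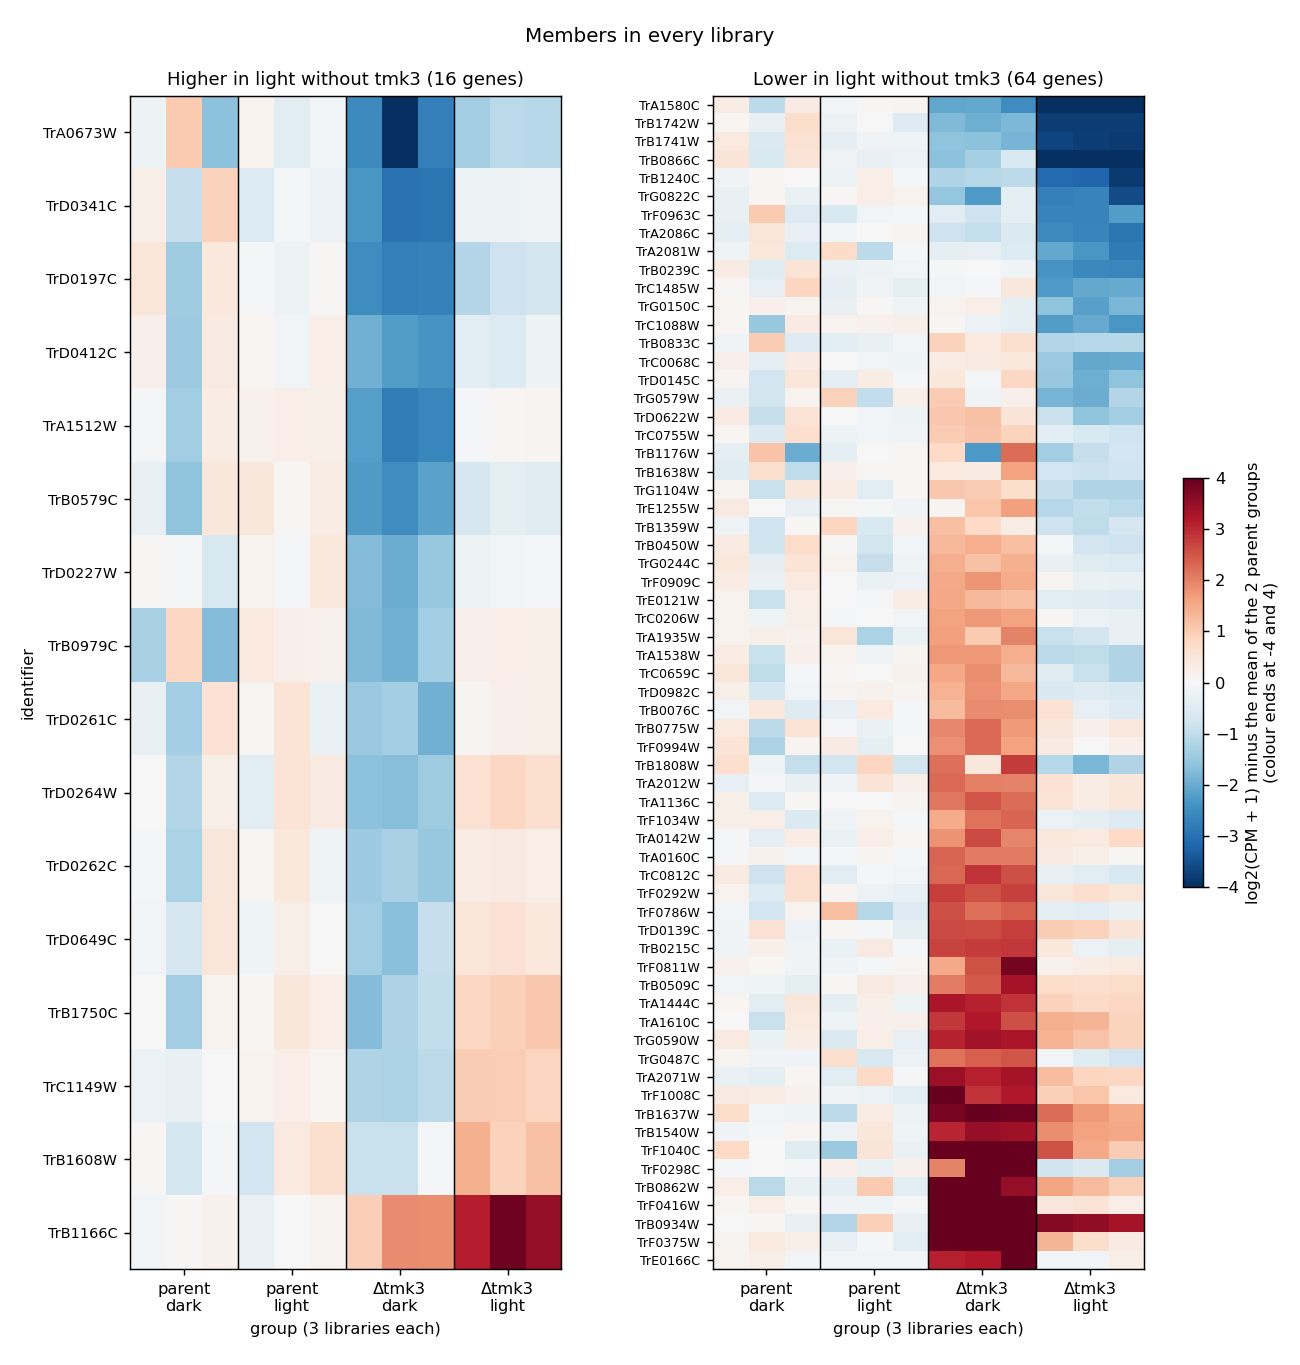
Level of each of the 80 genes in each of the 12 libraries, as log2(CPM + 1) minus the mean of the 2 parent group values; columns are libraries in the order replicate 1 to 3 within each group, rows are ordered by the strain difference in darkness. In the left panel the blue block of the dark deletion libraries covers 15 of 16 light-high genes. In the right panel the red block of the dark deletion libraries and the blue block of the light deletion libraries cover sets of light-low genes that overlap in part.

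The 64 light-low genes were more mixed. By strain difference they fell into 6 arrangements, set by whether the deletion strain was at least 2-fold above the parent, at least 2-fold below it or within 2-fold in each light condition (edgeR log2 fold changes, TMM-scaled). In 21 genes it was above the parent in darkness and within 2-fold in light. In 12 it was above in both conditions (1 of them, TrE0166C, by a fitted light value that rests on 3 counts), in 15 within 2-fold in darkness and below in light, in 8 below in both, in 5 above in darkness and below in light, and in 3 within 2-fold in both. The strain difference was the larger in darkness for 41 of the 64 and the larger in light for 23. The median strain difference was 1.48 on the log2 scale in darkness (range -2.49 to 5.88) and -0.67 in light (range -6.48 to 3.71). The dark deletion group had the highest of the 4 group means in 51 of 64, and the light deletion group had the lowest in 38.

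Genes raised in the dark deletion strain and within 2-fold of the parent in light made up the first arrangement. TrB0775W, one of the light-low genes with the most reads, measured 877, 324 and 979 CPM in the dark parent and 629, 559.7 and 651 in the light parent. In the deletion strain it measured 2554, 3188 and 2173 CPM in darkness and 916, 773 and 895 in light. The dark deletion libraries stood above all others. The light deletion libraries were within the range of the dark parent but above every light parent library. TrB0775W dropped out of the rule when replicate 2 of the dark parent was left out, with a parent ratio of 0.661. It also dropped out without replicate 2 of the dark or of the light deletion strain. TrA1136C and TrA2012W, singled out after their values were seen, were arranged likewise. TrA1136C was 129 ± 35.2 and 137 ± 4.93 CPM in the dark and light parent, and 657 ± 95.6 and 180.4 ± 16.8 CPM in the dark and light deletion strain. TrA2012W was 33.4 ± 3.56 and 46 ± 10.3 CPM in the parent and 170.2 ± 17.4 and 53.5 ± 5.17 CPM without tmk3. For both, the parent means in light and darkness were closer together than the deletion-strain means, and the dark deletion mean was the highest. The ratios of light to darkness without tmk3 were 0.276 and 0.319. TrA1136C met the rule whichever library was left out. TrA2012W dropped out without light parent replicate 1, dark deletion replicate 1 or light deletion replicate 2. The light deletion libraries of TrA1136C, at 195, 162 and 184 CPM, were also above every parent library, the highest of which was 158 CPM.

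Genes above the parent in both conditions included transcripts that the parent hardly made. TrF0416W had 35 and 21 counts in the parent, dark and light, and 1580 and 42 in the deletion strain. It was also lower in light in the parent (log2 fold change -0.88, SE 0.29), with all light libraries below all dark ones. With the added 1 CPM its parent ratio by the rule was 0.832. Its dark deletion libraries read 40.7, 34.6 and 34 CPM, a narrow range, and its light deletion libraries 1.21, 1.35 and 0.931 CPM. These light values were above every light parent library (0.452, 0.423 and 0.531 CPM) but small beside the dark ones, and the light ratio was 0.0578. TrB0934W stayed high in light: the parent measured 2.82, 3.07 and 2.16 CPM in darkness and 0.734, 6.55 and 2.12 in light, and the deletion strain 119, 76.9 and 209.5 and 48.5, 44.4 and 38. With a ratio of 0.328 it was also the light-low gene nearest inside the threshold. TrE0166C was scarce outside the dark deletion strain, where it had 529 counts. The parent had 7 counts in darkness and 0 in light, which allows a level of up to 0.0666 CPM over that light group. The light deletion group had 3 counts, so its strain difference in light is a fitted value with no reliable size. Of the 529 counts 298 fell in replicate 3, which carried the group mean over 10 CPM, and the gene no longer met the rule when that library was left out.

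In a further group the strains were close in darkness and the light deletion strain was the one apart. TrC1088W, also among those with the most reads, measured 1101, 363 and 1317 CPM in the dark parent, 1155, 1188 and 1204 in the light parent and 1083, 894 and 823 in the dark deletion strain. The light deletion libraries read 222, 256 and 208 CPM and were below all 9 others. TrG0150C and TrB0239C, singled out after their values were seen, had the same arrangement. TrG0150C was 1015 ± 42.7, 840.1 ± 98.8 and 947 ± 199.9 CPM in the dark parent, light parent and dark deletion strain, and 254 ± 50.8 CPM in the light deletion strain. TrB0239C was at 24.1, 24.6 and 22.4 CPM in the dark deletion libraries and 4.05, 3.33 and 3.22 in the light ones, against parent means of 28.5 and 21.5 CPM in darkness and light.

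The 8 genes below the parent in both conditions were lowest in light. TrA1580C measured 98, 38.4 and 101 CPM in the dark parent, 74.9, 83.4 and 85.7 in the light parent, 18.1, 18.7 and 13.5 without tmk3 in darkness and 2.07, 1.27 and 0.677 without tmk3 in light. The 4 groups thus formed 3 steps, the parent in either condition, the dark deletion strain and the light deletion strain, with no overlap between the steps. TrB0866C had 1743 and 1276 counts in the parent, dark and light, and 660 and 12 in the deletion strain. Its light deletion libraries read 0.517, 0.238 and 0.254 CPM against 29.9, 26.6 and 28.1 CPM in the light parent. In darkness the strains overlapped by 1 library each, replicate 2 of the parent and replicate 3 of the deletion strain, both at 21.5 CPM after rounding.

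In 5 genes the deletion strain was at least 2-fold above the parent in darkness and at least 2-fold below it in light. TrF0298C, the light-low gene with the largest ratio, measured 1.92, 2.01 and 1.87 CPM in the dark parent and 2.49, 1.55 and 2.5 in the light parent. Without tmk3 it measured 11.1, 47.8 and 91.9 CPM in darkness and 0.776, 1.03 and 0.169 in light. The dark deletion libraries spread widely, and even the lowest of them was above every parent library, while the light deletion libraries were below every parent library. The group means differed by a ratio of 30.9 of darkness to light on the scale of CPM + 1.

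**Figure D2:**
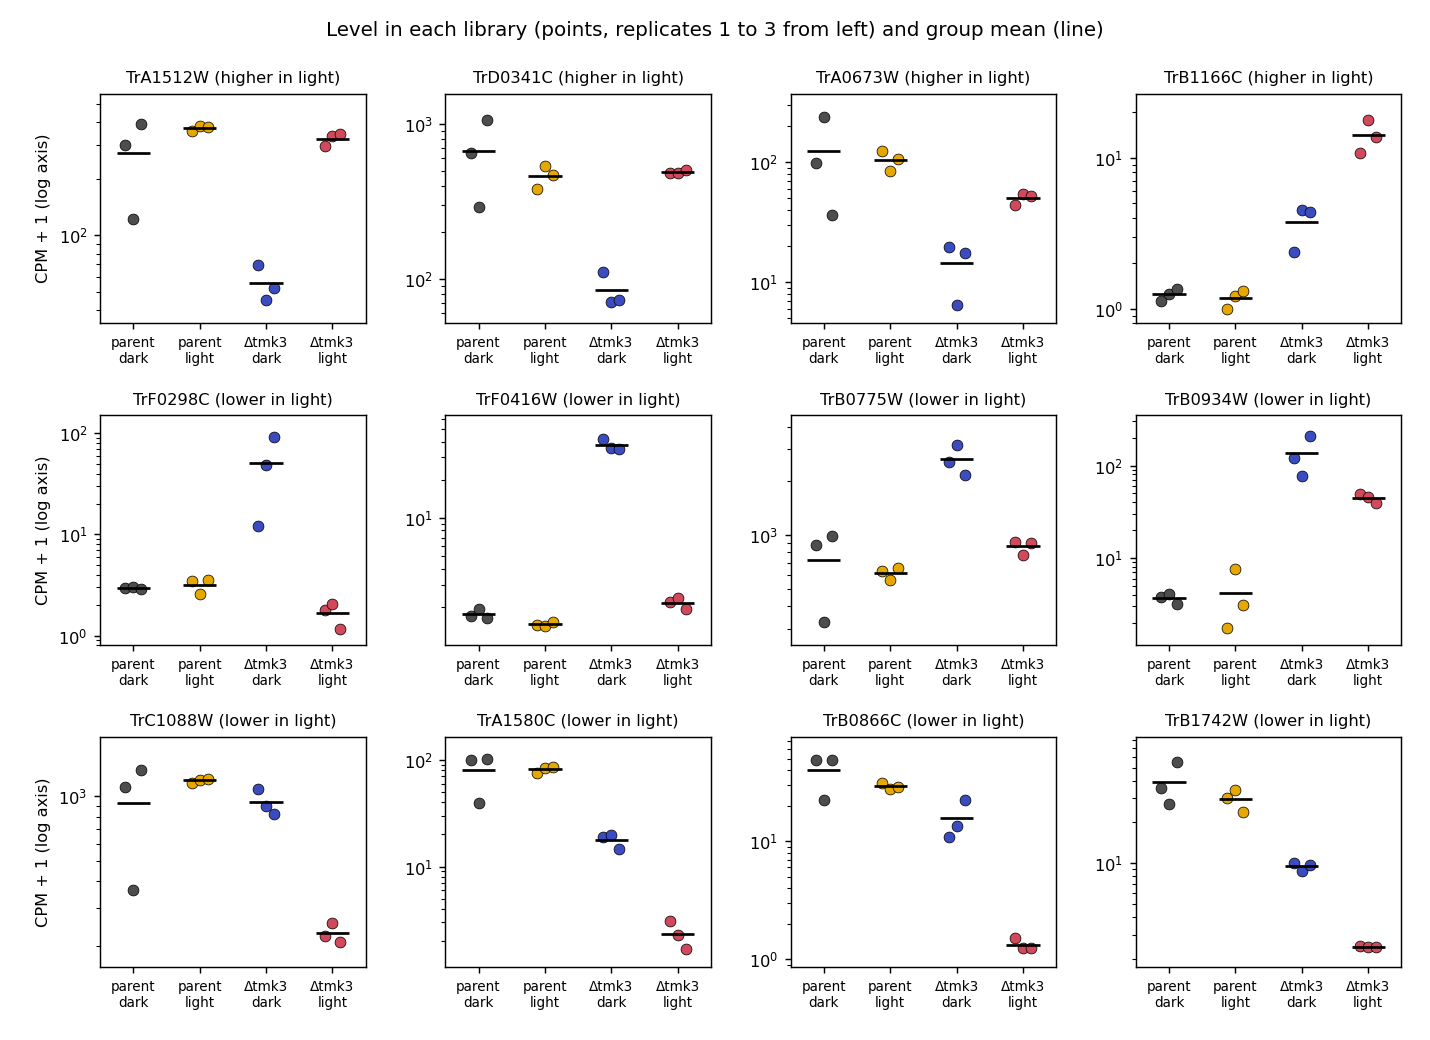
CPM + 1 on a log axis for 12 genes, 4 light-high (top row) and 8 light-low genes, 1 point for each library and a line at each group mean. The top row shows low dark deletion libraries in 3 genes and the exception TrB1166C, the middle row shows high dark deletion libraries, and the bottom row shows light deletion libraries below all 9 others.

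In the parent, light and darkness differed by no more than 0.5 on the log2 scale (TMM-scaled) in 13 of 16 light-high and 45 of 64 light-low genes. Over all genes tested this held for 4278 of 8998. The parent window of the rule sets most of these counts, so nothing is read from them. Where the parent had few reads, the value of 1 CPM added by the rule brought its ratio closer to 1. TrF0375W, singled out after its values were seen, had 27 counts in the dark parent group and 5 in the light one, a log2 fold change of -2.50, yet its ratio by the rule was 0.699. The parent was below 10 CPM in both conditions for 1 light-high and 21 light-low genes, and below 1 CPM in both for 1 and 3. In the deletion strain all light libraries lay below all dark ones for 63 of 64 light-low genes (32.5% of all genes tested). The remaining one, TrB1176W, held 43.8, 4.23 and 119.6 CPM in the dark deletion libraries and 8.79, 12.6 and 14 in the light ones, and it dropped out when replicate 3 of the dark deletion strain, or replicate 2 or 3 of the dark parent, was left out.

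Set library against library, strain differences of the light-low genes went both ways. In darkness all deletion libraries were above all parent libraries for 42 of 64 (34.8% of all genes tested) and below them for 6 (11.5%). In light they were above for 18 (34.1%) and below for 31 (17.5%). TMM-scaled libraries gave 42 above (23.1%) and 9 below (23.0%) in darkness, and 17 above (25.3%) and 33 below (24.7%) in light. The light-high genes had 6 above and 6 below in light by column totals, and 5 and 7 with TMM scaling. Above in darkness and below in light at once were 9 light-low genes (2.57%), or 11 with TMM scaling (2.43%). The reverse was seen in 3 light-high genes (1.52%), also 3 with TMM scaling (2.34%). In the parent, all light libraries were above all dark ones for 1 light-high gene, TrC1149W, and 1 light-low gene, TrB0509C (30.2%). They were below them for 4 light-low genes (20.1%), TrF0375W, TrF0416W, TrF1008C and TrG0150C. Nothing is read from these shares, since the rule used the same libraries.

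The flat parent response of TrB0979C, one of the light-high genes with the most reads, rested on 1 library. It measured 234, 1038 and 172 CPM in the dark parent and 768, 673 and 661 in the light parent. Replicate 2 alone lifted the dark mean far enough for the parent ratio to fall inside the window, and without it the ratio was 3.44 in place of 1.46. The deletion strain measured 170.2, 152 and 225 CPM in darkness and 669, 697 and 681 in light, close to replicates 1 and 3 of the dark parent and to the light parent. The dark parent was the most variable group in general, with a median coefficient of variation of 53.1% over light-high and 37.0% over light-low genes at 1 CPM or more, against 25.4% over all identifiers that met the level of the rule. The same medians for the light deletion strain were 7.81%, 15.1% and 6.19%. When each of the 12 libraries was left out in turn, 4 of 16 light-high and 28 of 64 light-low genes met the rule every time. The 4 were TrB1166C, TrC1149W, TrD0197C and TrD0649C. Without replicate 3 of the dark parent 7 of the 16 light-high genes dropped out, and without replicate 2 of the dark parent 12 of the 64 light-low genes did.

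At the threshold, TrD0227W was the light-high gene nearest inside, with a ratio of 3.01 and 132, 111 and 153 CPM in the dark and 379, 407 and 412 in the light deletion libraries. TrB1244W was nearest outside, with a ratio of 2.98 and 12, 14 and 11.2 against 35.3, 41.5 and 40 CPM. On the other side TrB0934W was nearest inside, and TrA0627C nearest outside with a ratio of 0.351, from 539, 384 and 455 CPM in darkness to 176, 122 and 183 in light. The light-high genes had no gap at the threshold between those inside and those outside.

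The difference between the strains averaged over light and darkness is the 1 contrast of this design that is orthogonal to both light ratios and to their difference when all groups vary alike. Here the dark parent varied more than the other groups, so the separation is not complete. The rule also makes the strain differences in darkness and light lie about 2-fold apart or more on the scale of CPM + 1, so some strain difference had to exist in at least 1 condition. For genes that reach 10 CPM in both strains, the rule does not set whether the deletion strain was on average above or below the parent. Where the parent was below 10 CPM in both conditions (1 light-high and 21 light-low genes), the required level was met only in the deletion strain. This favours a higher average there, so values of such genes are given with no p. The converse held for TrD0412C among the light-high genes and for TrB1742W, TrF0963C and TrG0822C among the light-low genes. Their deletion-strain means were below 10 CPM in both conditions, so the level was met only in the parent, which favours a lower average. Each of them was called lower, and no p is given for them either. In edgeR's quasi-likelihood test over 8998 genes, all 80 genes included, 12 of 16 light-high genes were lower on average without tmk3 and 1 was higher. For all genes tested, 20.4% were lower and 19.7% higher, 40.1% in either direction. Of the 64 light-low genes, 28 were higher on average, 15 were lower and 21 were not called, so 43 of 64 were called in either direction and 13 of 16 of the light-high genes. Without replicate 2 of the dark parent, 13 light-high genes were lower and 1 higher, and 29 light-low genes were higher and 17 lower, beside 2019 higher and 2223 lower over all genes. The median log2 fold change was -0.95 over the light-high genes, 0.43 over the light-low genes and -0.05 over all genes tested.

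Among light-high genes the lowest on average was TrA0673W (log2 fold change -2.40, SE 0.46, edgeR adjusted p = 0.00198), from 124 ± 104 and 104 ± 19.9 CPM in the dark and light parent to 13.4 ± 6.95 and 49.1 ± 5.52 CPM. Its dark parent libraries ranged from 35.5 to 238 CPM, and it was no member without replicate 2 of that group. TrD0197C was next (log2 fold change -2.07, SE 0.26, edgeR adjusted p = 0.000116), at 5.23, 4.3 and 4.37 CPM in the dark and 14.5, 18.8 and 20.1 in the light deletion libraries. All 3 dark ones were below every parent library, the lowest of which was 11.9 CPM in replicate 2 of the dark parent. TrA1512W and TrD0341C were called lower as well, with log2 fold changes of -1.42 and -1.62 (edgeR adjusted p = 0.000236 and 0.000229). TrB1166C, with a parent below 10 CPM throughout, had a log2 fold change of 4.68. TrB0979C was not called (log2 fold change -0.99, SE 0.42, edgeR adjusted p = 0.0808), but was called lower without replicate 3 or replicate 1 of the dark parent (edgeR adjusted p = 0.0139 and 0.0393). Without replicate 2 of that group its log2 fold change was -0.25 (edgeR adjusted p = 0.131). The alternatives that gave a value ranged from 0.0139 to 0.213 in adjusted p, and DESeq2 gave none.

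Among light-low genes, TrB0775W was called higher (log2 fold change 0.99, SE 0.19, edgeR adjusted p = 0.00186). Those with a parent below 10 CPM in both conditions included TrB0934W (log2 fold change 4.53), TrF0416W (3.22) and TrE0166C, whose fitted 4.59 depends on the prior count and became 2.93 without replicate 3 of the light deletion strain, which held its 3 light counts. Those called lower were led by TrA1580C (log2 fold change -4.26, SE 0.25, edgeR adjusted p = 5.99e-07) and TrB0866C (log2 fold change -4.07, SE 0.27, edgeR adjusted p = 1.62e-06), and TrC1088W was also called (-1.35, SE 0.21, edgeR adjusted p = 0.000517). TrF0298C, whose strain differences in darkness (4.40) and light (-1.82) pointed in opposite directions, had an average of 1.29 (SE 0.54) and also belonged to these low-parent genes.

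**Figure D3:**
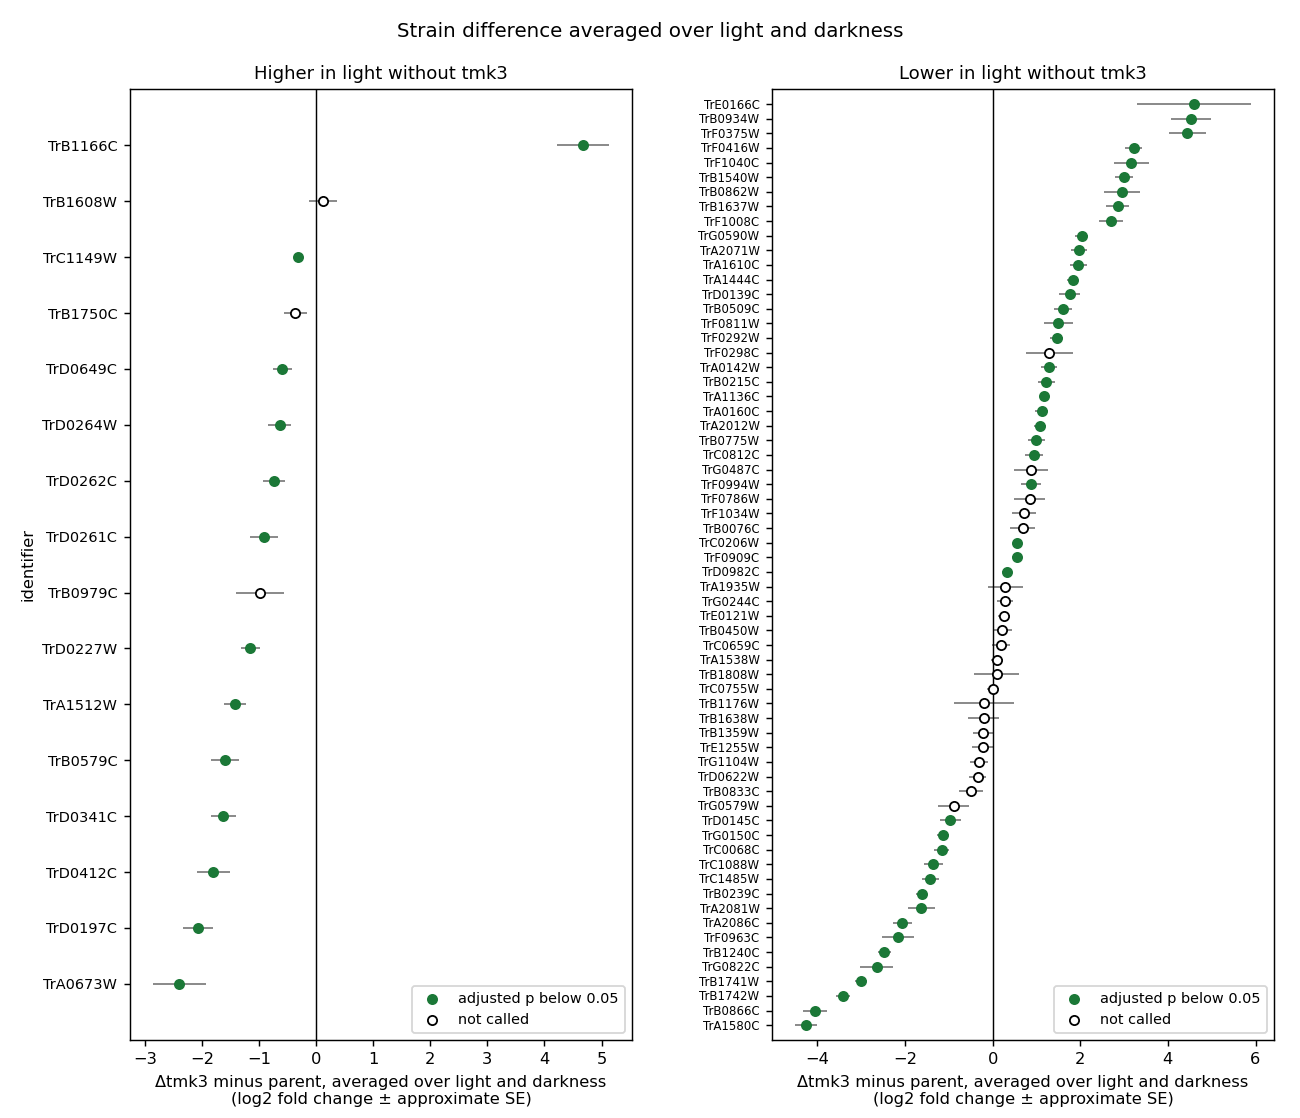
Strain difference averaged over light and darkness (log2 fold change ± approximate SE, edgeR) for the 16 light-high genes (left) and 64 light-low genes (right), filled where the adjusted p was below 0.05. Of the light-high genes 12 filled points lie below 0 and 1 above, and the light-low genes hold 28 filled points above 0 and 15 below. Of the filled points above 0, 1 and 13 belong to genes below 10 CPM in both parent groups, where the choice of genes favours that direction. Of the filled points below 0, 1 and 3 belong to genes below 10 CPM in both deletion-strain groups, where it favours the lower direction.

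The split depended on the parent level and on the scaling. Among the 38 light-low genes with at least 10 CPM in both parent groups, 12 were called higher and 11 lower, with a median of -0.09. Among the other 26 they were 16 and 4, with a median of 1.28. In 21 of these 26 the parent was below 10 CPM in both conditions (13 called higher and 2 lower), so the excess of higher calls there is in part fixed by the choice and is not read as a result. Of the 14 light-high genes above that level 11 were called lower and 0 higher, with 1 each among the remaining 2. This level was asked of the parent alone and not of the deletion strain, which favours lower calls. The counts among the 38 and the 14 genes are therefore not read as a result either. Scaling by total counts in place of TMM raised the median over all genes by 0.20 on the log2 scale. It left 7 light-high genes called lower and 1 higher, and 33 light-low genes higher and 15 lower, with 2513 genes higher and 1020 lower in all, against 1771 and 1833 with TMM.

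**Figure D4:**
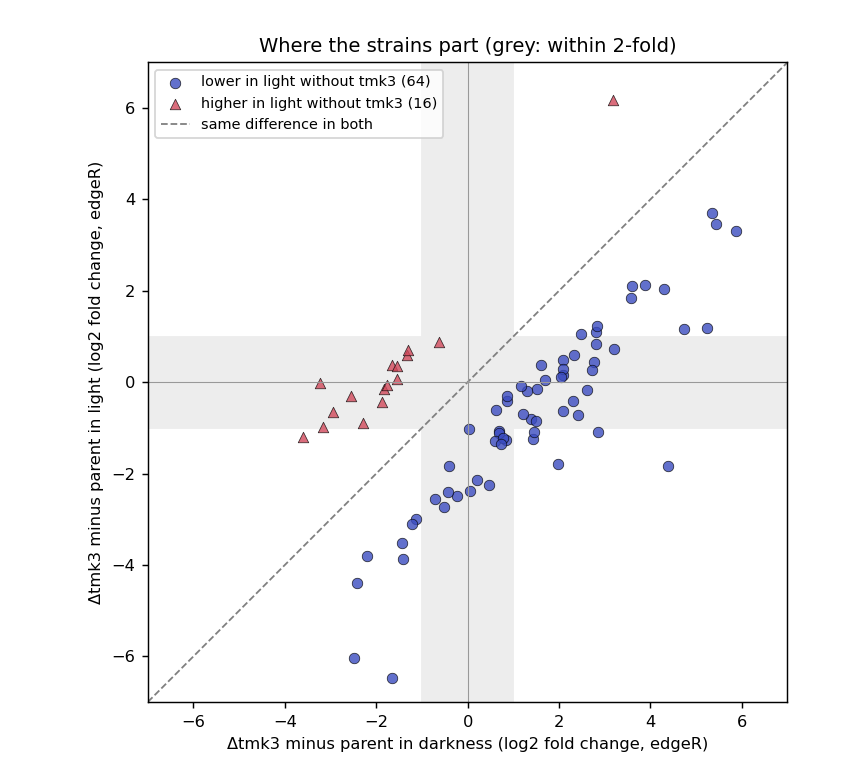
Strain difference in light against strain difference in darkness for the 80 genes (edgeR log2 fold changes, deletion strain minus parent). Triangles are light-high and circles light-low genes, the grey bands mark differences within 2-fold, and the rule places all points away from the dashed line of equal differences; the triangles lie mostly to the left of the band in darkness (13 of 16 lower there and inside the band in light), and the circles spread along the line from strongly lower to strongly higher.

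Along the identifiers, read as a series letter and a running number, 8 of the 16 light-high genes were in series D, which holds 12.7% of the 6924 identifiers that reached the level, and 0 were in series E, F or G. The light-low genes were found in all 7 series, with 19 in series B (29.7%, against 19.2% of the 6924) and 12 in series F (18.8%, against 9.03%). The letters W and C, which end each identifier, were W in 6 of 16 light-high and 35 of 64 light-low genes, and in 49.5% of the 6924. No test was made of these counts. Genes with numbers at most 2 apart were taken as neighbours, on the assumption that numbers follow the order of genes, since the file holds no coordinates.

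Neighbours were few. TrD0261C, TrD0262C and TrD0264W formed the single run of light-high genes, and all 3 dropped out of the rule when dark parent replicate 3 was left out. In the dark deletion strain they read 8.07, 8.96 and 5.76 CPM (TrD0261C), 34.4, 38.8 and 33.2 CPM (TrD0262C) and 22.8, 21.5 and 26.4 CPM (TrD0264W). In the light deletion strain the values were 26.6, 28.5 and 29.1 CPM, 119, 125 and 116 CPM and 109.8, 128 and 112 CPM. In all 3 genes the libraries of the dark deletion strain were below those of the dark parent, where replicate 2 was lowest at 8.96, 39.2 and 31.5 CPM, although for TrD0261C the nearest libraries of the strains agreed to 3 digits. TrD0263C, between them, was low throughout, with means between 0.206 and 3.04 CPM. The flanking TrD0260W and TrD0266W had deletion-strain light ratios of 0.787 and 1.11. Averaged over light, all 3 were called lower without tmk3 (log2 fold changes -0.91, -0.74 and -0.64, edgeR adjusted p = 0.0148, 0.0114 and 0.0246). Scaled by total counts 0 of the 3 were called (edgeR adjusted p between 0.059 and 0.126). TrD0264W was also not called when replicate 1 of the dark parent, replicate 2 of the light parent, replicate 2 of the dark deletion strain or replicate 1 of the light deletion strain was left out (edgeR adjusted p between 0.0513 and 0.0586, range over all alternatives 0.00158 to 0.126).

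The light-low genes held 2 such pairs, and neither kept both genes inside the rule when dark parent replicate 2 was left out. TrB1741W and TrB1742W both dropped out then, and TrB1638W did, while TrB1637W dropped out without dark parent replicate 3 or light parent replicate 2. TrB1637W was 10.1 ± 4.19 and 7.23 ± 3.55 CPM in the dark and light parent, and 151 ± 23.6 and 33.4 ± 9.77 CPM in the deletion strain. It was called higher on average (log2 fold change 2.85, SE 0.27). Its dark parent libraries read 14.95, 7.9 and 7.49 CPM, so replicate 1 alone brought that mean just over 10 CPM. The choice of genes therefore also favours its higher average, and no p is given. TrB1638W, next to it, read 18.4, 17.3 and 43.2 CPM in the dark and 7.67, 7.14 and 7.45 in the light deletion libraries, highest in dark replicate 3, and was not called (-0.21, edgeR adjusted p = 0.657). Its sign turned when dark parent replicate 2 was left out (0.22) and with total counts (0.033). The second pair was named after its values were seen. TrB1741W read 37.8, 37.2 and 32 CPM in the dark and 8.36, 7.69 and 7.36 in the light deletion strain, and TrB1742W 8.99, 7.83 and 8.67 and 1.47, 1.43 and 1.44. Their parent means were 137 and 101 CPM (TrB1741W) and 38.3 and 28.3 CPM (TrB1742W) in darkness and light. Both were called lower without tmk3 (log2 fold changes -3.00 and -3.41, edgeR adjusted p = 2.18e-07 for TrB1741W). TrB1742W was below 10 CPM in both deletion-strain groups, so the choice of genes favours its lower average and no p is given.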

How the data were processed

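The deposited table gives whole-number counts of reads for every gene model, raw as far as the values show. Per the submitters' processing notes HISAT2 2.2.1 was used, and the labels' protocols name a strand-specific NEB kit with rRNA depletion. How reads were counted, and with which strand setting, is not given in the sources used here, so overlapping genes and near-identical copies are uncertain. The rule was applied in Python 3.11.15 to CPM by column total, and levels are on that scale. Tests used R 4.3.3 and edgeR 4.0.16 on counts (filterByExpr, 8998 genes, TMM, 4 group means, quasi-likelihood F test, Benjamini-Hochberg, called below 0.05), with DESeq2 1.42.0 and limma 3.58.1 as alternatives. SE is the absolute log2 fold change over the square root of F, an approximation that is unreliable at few counts. The procedure was tested on simulated counts. Each gene had the same spread in every group there, and no genes were chosen by the rule. That check therefore does not cover the more variable dark parent or the choice of genes. A limit for 0 counts is 3 counts over a group and covers counting error only. Libraries of a group all differed by more than sampling noise (chi-square over degrees of freedom 12.9 to 483).

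The genes and the tests were chosen with earlier results of these data known. Genes named in the text were, for each direction, the 2 with the largest light ratio without overlap, the 2 with the highest group mean, the nearest on each side of the threshold, the 2 called highest and 2 called lowest in the averaged strain difference, and the longest run of neighbours. Others are marked as singled out or named after their values were seen, or are listed as the few members of a count.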

Additional observations from a re-analysis of the deposited data

Results flagged for a closer look

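In 9 light-low genes the 3 dark deletion libraries were all above the dark parent libraries and the 3 light deletion libraries all below the light parent libraries (2.57% of all genes tested). TrA1538W is an example, at 805, 808 and 656 CPM against 296, 129 and 277 CPM in darkness and 117, 119 and 105 against 262, 217 and 259 CPM in light. Averaged over light its strain difference was 0.10 on the log2 scale (edgeR adjusted p = 0.593). In 3 light-high genes, TrC1149W, TrD0264W and TrD0649C, the order was the opposite, below the parent in darkness and above it in light (1.52% of all genes tested). TrC1149W measured 36.1, 34.6 and 40 CPM against 71.5, 68.8 and 84.7 CPM in darkness and 171, 169 and 155 against 92.6, 100.1 and 89.5 CPM in light. The difference between the strain differences was not tested, because it is what chose these genes. With TMM-scaled libraries the counts were 11 and 3, and TrB1750C took the place of TrD0264W. All were named after their values were seen.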

How the results depend on the processing

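The number of genes moved with the rule's own limits. With a narrower parent window it held 7 light-high and 40 light-low genes, with a deletion-strain threshold of 2-fold 55 and 152, and with 4-fold 5 and 37. With at least 10 CPM in both parent groups, an alternative chosen after seeing the data, 38 light-low genes remained, of which 12 were called higher averaged over light, and 0 light-high genes were called higher. That limit was set on the parent alone, which favours lower calls. With TMM-scaled CPM 22 light-high and 55 light-low genes met the rule, and 15 and 54 of these were among the original ones. Leaving out 1 library at a time gave 11 to 21 light-high and 58 to 67 light-low genes.

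For the strain difference averaged over light, leaving out 1 library at a time gave 11 to 13 light-high genes called lower and 1 higher throughout, 26 to 30 light-low genes higher and 15 to 17 lower, and over all genes 1520 to 2019 higher and 1466 to 2223 lower. At an adjusted p below 0.01, 1071 genes were lower in all. Scaled by total counts 1020 were, with 7 light-high genes among them. DESeq2, limma with weights by group, RLE scaling and no filter gave 12 light-high genes lower. Of the light-low genes they called 27 to 30 higher and 15 or 16 lower. Over all genes they called 1620 to 1949 higher and 1773 to 2204 lower. The libraries share replicate numbers, but 3 of 18 same-numbered pairs had deviations correlated above 0.1 (r between -0.37 and 0.115), and a library was closest to its own number in 10 of 36 comparisons, so the numbers were not read as pairs. With a replicate block 12 light-high genes were lower and 1 higher, and 28 light-low genes were higher and 16 lower, beside 1613 higher and 1565 lower over all genes. A fit without 2 dark libraries at once, parent replicate 2 and deletion-strain replicate 1, was also chosen after seeing the data. There the counts were 13 and 1, and 31 and 18, beside 1975 higher and 2134 lower over all genes. Over the 20 genes named by rule, 362 alternative values kept their call and direction, 8 lost the call and 6 gained it. In 3 the sign turned, all for TrB1638W, never called (log2 fold change -0.21), with 0.033 under total counts and 0.32 without those 2 dark libraries; leaving out 1 library gave -0.502 to 0.219, the highest when dark parent replicate 2 was omitted. DESeq2 gave no adjusted p for TrB0979C. Depth limits the genes with few parent counts, such as TrE0166C with 0 in the light parent, whose fold changes have no reliable size.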
